A study of Mus musculus with 2 samples.

Results

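The genes described here encode the subunits of voltage-gated calcium and sodium channels, taken as every protein-coding gene whose symbol begins with Cacna1, Cacna2d, Cacnb or Cacng, or reads Scn, a number, and a or b. Epithelial sodium channel genes (Scnn) were left out. The rule found 40 genes, of 21474 protein-coding genes and 43346 Ensembl genes in each table. They comprise 10 Cacna1, 4 Cacna2d, 4 Cacnb, 8 Cacng, 10 Scn alpha and 4 Scn beta subunits. The samples were whole adrenal glands of B6NCrl mice at postnatal day 0, 2 glands from 1 pup in each of 2 libraries, and both pups carry the number of 1 pregnant animal in the labels. Both belong to 1 group with no treatment or mutation named, each library began with 10 ng of total RNA plus spike-ins, and the sex was not collected. The libraries hold 41510071 counts in pup 1 and 40800539 in pup 2, of which the 40 genes take 24711 and 16130. No sample is a replicate of the same pup, so no test between the pups was possible.

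A voltage-gated calcium channel has a pore subunit (Cacna1) that opens on depolarization, and in its high-voltage-activated forms also an intracellular beta subunit (Cacnb) and an extracellular alpha2delta subunit (Cacna2d), which raise the number of channels at the membrane. The gamma family (Cacng) holds a subunit of the skeletal muscle calcium channel and several proteins that instead accompany AMPA-type glutamate receptors. Sodium channels have a larger pore subunit (Scn alpha) and single-pass beta subunits (Scn beta). In the adrenal gland these channels are known from chromaffin cells, which fire action potentials and release catecholamines on calcium entry, and from the aldosterone-making cells of the cortex, where T-type and L-type calcium channels admit calcium.

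Sodium channels are sorted by whether nanomolar tetrodotoxin blocks them, which depends on 1 residue of the first pore loop. The coding stretches around that codon (39 bases, mm10, GENCODE M21, coding strand, codon in capitals) are shown for the 4 blocked channels with the highest mean TPM (a share of all transcripts, corrected for length) and for 1 resistant channel, because the makeup of the sodium channel class is described by this division.
Scn3a (chr2:65521798-65521836, minus strand, tyrosine): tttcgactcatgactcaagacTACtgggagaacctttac
Scn9a (chr2:66548986-66549024, minus strand, tyrosine): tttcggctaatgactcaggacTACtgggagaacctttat
Scn8a (chr15:100971617-100971655, plus strand, tyrosine): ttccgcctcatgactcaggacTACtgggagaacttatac
Scn2a (chr2:65688415-65688453, plus strand, phenylalanine): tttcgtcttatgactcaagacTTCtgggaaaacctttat
Scn10a (chr9:119666372-119666410, minus strand, serine): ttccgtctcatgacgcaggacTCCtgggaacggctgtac
The aromatic codons of Scn3a, Scn9a, Scn8a and Scn2a stand where Scn10a has serine. The Scn7a transcript did not match the search pattern for this loop, and Scn7a (Nax), a sodium sensor that voltage does not open, was kept apart.

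The newborn gland carried RNA for all 6 classes. Of the 40 genes, 18 (45.0%) reached a TPM of 1 in both pups, against 60.5% of all protein-coding genes, and 17 stayed below 1 in both. The highest were Scn3b at 29.9 ± 16.8 TPM (SD, n = 2), Cacnb3 at 19.5 ± 6.39 and Cacna2d1 at 17.3 ± 8.03, all accessory subunits. These stood at percentiles 82.2, 76.2 and 74.2 of the mean TPM of protein-coding genes, whose median is 3.79. No pore subunit had a mean TPM above the 5.75 ± 2.58 of Scn3a.

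**Figure D1:**
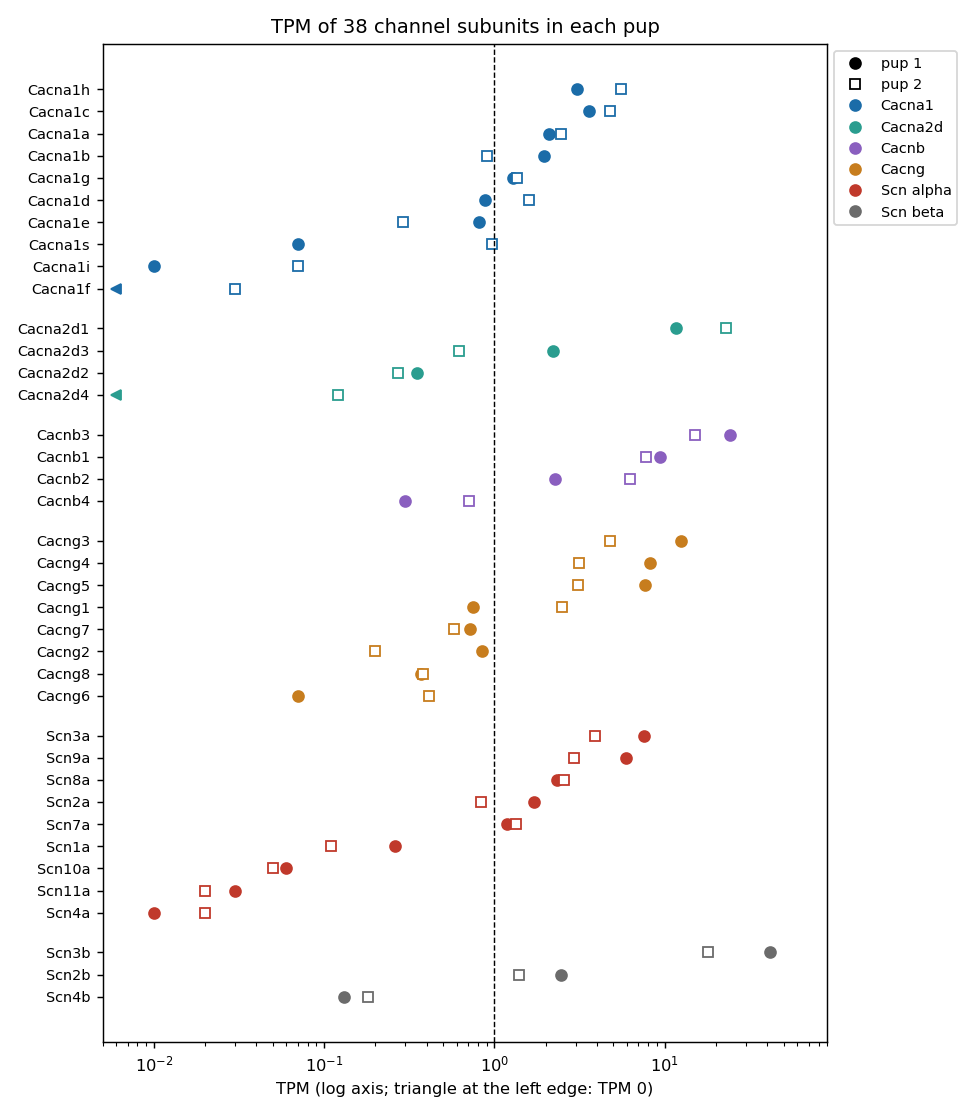
TPM of 38 of the 40 genes on a log axis, by subunit class; filled circles are pup 1, open squares pup 2, triangles at the left edge are TPM 0, and the dashed line is TPM 1. Scn3b, Cacnb3 and Cacna2d1 lie farthest to the right, and Cacna1i and Scn4a among the farthest to the left.

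Summed over their members, the Scn beta and Cacnb classes each held more TPM than either pore class in both pups. The Scn beta subunits summed to 48.55 TPM in pup 1 and 23.26 in pup 2, and the Cacnb subunits to 36.05 and 29.71. Cacng summed to 30.97 and 15.09 TPM, and Cacna2d to 14.16 and 23.96. The Cacna1 pores summed to 13.74 and 17.96 TPM and the Scn alpha pores to 19.18 and 11.84. The class order differed between the pups: Scn beta was highest in pup 1 and Cacnb in pup 2. By the mean, neighbours in the order differed by less than the larger of their SDs, from 35.9 ± 17.9 TPM for Scn beta and 32.9 ± 4.48 for Cacnb down to 15.9 ± 2.98 for Cacna1 and 15.5 ± 5.19 for Scn alpha (SD, n = 2). Cacnb over Cacna1 was 2.62 in pup 1 and 1.65 in pup 2, and Scn beta over Scn alpha was 2.53 and 1.96. Scn alpha exceeded Cacna1 in pup 1 (ratio 1.40) and lay below it in pup 2 (0.66).

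**Figure D2:**
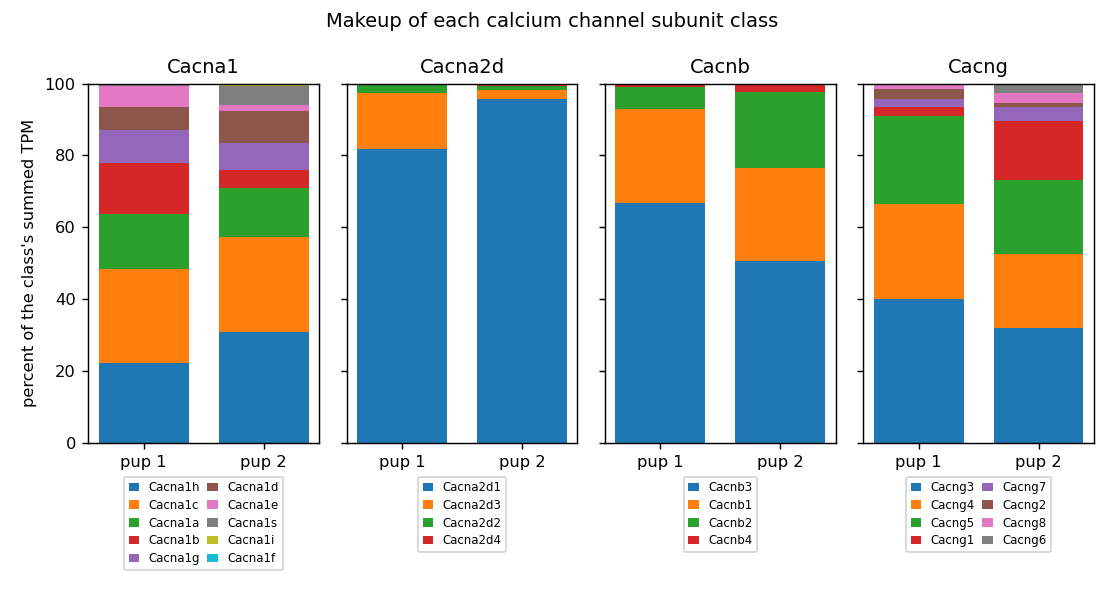
Percent of the summed TPM of each calcium channel class in each gene, 1 stacked bar per pup, with the legend of each panel in order from the bottom of the bar. Cacna2d1 fills 81.9% and 95.8% of its class, while no Cacna1 pore reaches 31%.

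Among the calcium channel pores, Cacna1h and Cacna1c led in TPM over all transcripts. Cacna1h (Cav3.2), a T-type pore that opens near the resting potential, stood at 3.05 TPM in pup 1 and 5.53 in pup 2. Cacna1c (Cav1.2), the L-type pore of heart and smooth muscle that neuroendocrine cells also use, stood at 3.59 and 4.75 TPM. Pup 1 had the lower level of both, and their order by TPM differed between the pups. By posterior mean TPM, a second deposited estimate, Cacna1h led in both. It stood at 3.82 and 6.73, against 3.67 and 4.82 for Cacna1c. Cacna1d (Cav1.3), the L-type pore of pacemaking cells, had 0.88 and 1.59 TPM, and the T-type Cacna1g (Cav3.1) 1.28 and 1.36.

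Of the neuronal pores of transmitter release, P/Q-type Cacna1a (Cav2.1) was at 2.10 and 2.46 TPM and N-type Cacna1b (Cav2.2) at 1.95 and 0.91. In pup 1 their order reverses when only long coding transcripts are counted, as described below. It also reverses there by posterior mean TPM, at 2.56 for Cacna1a and 2.63 for Cacna1b. R-type Cacna1e (Cav2.3) had 0.81 TPM in pup 1 and 0.29 in pup 2. Cacna1b and Cacna1e were thus the pores with less TPM in pup 2. Cacna1s (Cav1.1), the skeletal muscle L-type pore, had 0.07 and 0.97 TPM from 8 and 57 counts. In pup 2 a non-coding transcript of 1001 bases held 0.70 of this TPM, and the long coding TPM was 0.03 and 0.19. The T-type Cacna1i and the retinal L-type Cacna1f stayed at or below 0.07 TPM, and Cacna1f had 0 counts in pup 1, where a count of 0 allows up to 3.

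By channel type, L-type pores made up 33.0% of Cacna1 TPM in pup 1 and 40.9% in pup 2, and T-type pores 31.6% and 38.8%. P/Q-type took 15.3% and 13.7%, N-type 14.2% and 5.07%, and R-type 5.90% and 1.61%. Over all transcripts, L-type and T-type thus had like shares of TPM in each pup, and N-type and R-type had the smaller share in pup 2. By posterior mean TPM, the mean share was 32.7% for L-type and 38.0% for T-type.

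Of the alpha2delta subunits, Cacna2d1, the widely expressed form that binds gabapentin, was at 11.60 TPM in pup 1 and 22.95 in pup 2. It held 81.9% and 95.8% of the class. Cacna2d3, a form of the nervous system, was at 2.21 and 0.62 TPM and so moved the other way. Cacna2d2 (0.35 and 0.27 TPM) and Cacna2d4 (0 and 0.12 TPM, from 0 and 4 counts) were low in both pups.

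Of the beta subunits, Cacnb3, common in neurons and endocrine cells, led at 24.03 and 15.00 TPM, or 66.7% and 50.5% of the class. Cacnb1, the beta subunit of skeletal muscle that other tissues also make, followed at 9.44 and 7.75. Cacnb2, the main cardiac beta subunit, had 2.28 and 6.25 TPM, and Cacnb4, of the cerebellum and thalamus, 0.30 and 0.71. The order Cacnb3, Cacnb1, Cacnb2, Cacnb4 was the same in both pups.

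In the gamma family, the 3 leading genes were AMPA receptor partners and not calcium channel subunits in the strict sense. Cacng3 stood at 12.38 TPM in pup 1 and 4.80 in pup 2, Cacng4 at 8.23 and 3.13, and Cacng5 at 7.61 and 3.10. All 3 were over 2-fold higher in pup 1 by TPM, in the same order in both pups. Stargazin (Cacng2), the founding AMPA receptor partner, had 0.84 and 0.20 TPM, Cacng7 0.72 and 0.58, and Cacng8 0.37 and 0.38. Cacng1, the gamma subunit of the skeletal muscle channel, went the other way, at 0.75 TPM in pup 1 and 2.49 in pup 2, as did the low Cacng6, at 0.07 and 0.41 TPM.

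Among the sodium channel pores, Scn3a (Nav1.3), prominent in fetal and newborn nervous tissue, stood at 7.57 TPM in pup 1 and 3.92 in pup 2. Scn9a (Nav1.7), the pore of sympathetic and sensory neurons, stood at 5.95 and 2.94. Both are known from rodent chromaffin cells, and both had less TPM in pup 2. Scn8a (Nav1.6), found at nodes of Ranvier, was at 2.32 and 2.55 TPM, Scn2a (Nav1.2), a pore of unmyelinated axons, at 1.71 and 0.83, and Scn7a at 1.18 and 1.33. The remaining pores were low: Scn1a reached 0.26 and 0.11 TPM, and the nociceptor pores Scn10a and Scn11a at most 0.06.

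Scn4a, the sodium channel of skeletal muscle, had 3 and 5 counts and 0.01 and 0.02 TPM. It thus stayed near 0 in the pup in which Cacna1s and Cacng1 were higher. Tetrodotoxin-blocked pores made up 92.9% of Scn alpha TPM in pup 1 and 87.6% in pup 2, the resistant pores 0.94% and 1.18%, and Scn7a 6.15% and 11.2%.

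Of the sodium channel beta subunits, Scn3b, which modulates inactivation and binds without a disulfide bond, stood at 41.75 TPM in pup 1 and 18.05 in pup 2. It held 86.0% and 77.6% of the class and was the highest of the 40 genes in pup 1. In pup 2 Cacna2d1 was higher. Scn2b, a disulfide-linked beta subunit, had 2.46 and 1.40 TPM. Scn4b was at 0.13 and 0.18 TPM.

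Part of the pores' TPM came from short or non-coding transcripts, whose share of TPM exceeds their share of reads because TPM divides by length. In pup 1 the long coding transcripts of Cacna1c, defined next, held 24.5% of its TPM and 66.9% of its counts. Counting only protein-coding transcripts of at least 80% of the length of the gene's longest coding sequence (called long coding here, a measure chosen after the data were seen), the 13.74 and 17.96 TPM of Cacna1 became 6.15 and 10.03, and the 19.18 and 11.84 of Scn alpha became 11.92 and 7.28. The other classes kept more: Scn beta had 44.75 and 20.24 long coding TPM, Cacnb 33.87 and 22.06, Cacng 29.24 and 14.38, and Cacna2d 14.13 and 23.78. On this measure each of the 4 accessory classes exceeded both pore classes in both pups, with Cacnb over Cacna1 at 5.51 and 2.20. The measure sets whole transcript length against coding sequence length, which is 6666 bases for Cacna1c and 945 for Cacng3. Short transcripts thus pass more easily in genes with short coding sequences, so the cut-off does not treat the classes alike. In all, 13 of the 40 genes had 1 or more long coding TPM in both pups, and of the Cacna1 pores only Cacna1h did. Long coding TPM was not computed for other genes, so no share of all protein-coding genes stands beside this count.

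The order within the pores changed with this measure. Scn8a dropped to 0.42 TPM in pup 1 and 0.47 in pup 2, 18.1% and 18.4% of its TPM, although the long transcripts held 71.9% and 72.1% of its counts. The rest lay in a single transcript of 1072 bases. Scn3a had 4.05 and 2.83 long coding TPM, since a transcript of 365 bases held 46.5% and 25.7% of its TPM. Scn9a kept 4.89 and 1.88, so it stood above Scn3a in pup 1 and below it in pup 2. Cacna1c went to 0.88 and 2.07 TPM, behind Cacna1h at 1.52 and 3.99, while Cacna1d, with long coding transcripts alone, kept its 0.88 and 1.59. Cacna1b had 1.48 and 0.66, near Cacna1h in pup 1, and Cacna1a fell to 0.75 and 0.72. N-type then held 24.1% and 6.58% of long coding Cacna1 TPM, L-type 29.1% and 38.7%, and T-type 29.9% and 46.5%.

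**Figure D3:**
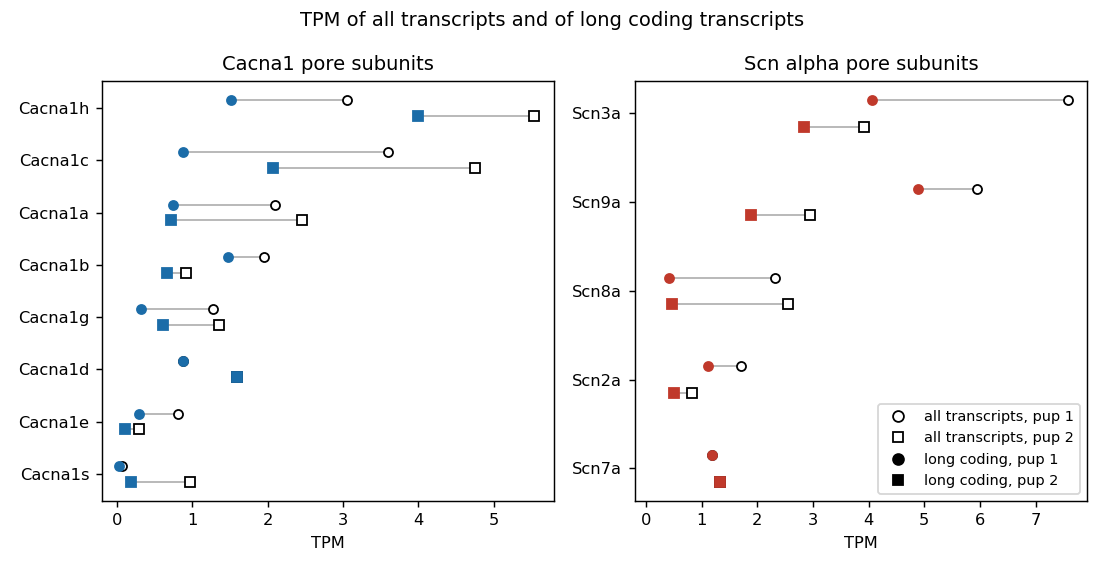
TPM of the Cacna1 (left) and Scn alpha (right) pores that reach TPM 0.5 in either pup; open symbols are all transcripts, filled symbols long coding transcripts, circles pup 1 and squares pup 2, joined by a line for each gene and pup. Among the Cacna1 pores the gap is widest for Cacna1c in both pups, among the Scn alpha pores for Scn3a in pup 1, and Cacna1d and Scn7a have none.

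Leading transcripts were mostly shared by the pups. Of the 18 genes at TPM 1 in both, 17 have more than 1 transcript in the tables, and 13 of these had the same leading transcript in both pups, which was long coding in 10. The exceptions among the 13 were the 1072-base transcript of Scn8a, a non-coding one of Cacna1c and a retained-intron one of Cacnb2. Cacnb2 RNA was mainly of such kinds: its long coding transcripts held 25.2% of its counts in pup 1 and 16.3% in pup 2. Its 6.25 TPM in pup 2 included 0.73 of long coding transcripts. The leading Cacnb3 transcript held 86.5% and 84.7% of TPM, and that of Scn3b 49.6% and 37.2%. By posterior mean isoform percent, a retained-intron transcript of Cacna1h exceeded its leading long coding one in pup 1, at 32.05% against 29.58%.

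Between the pups, most of the family was higher in pup 1 relative to the other genes of the gland. Ratios are log2 of pup 2 over pup 1 of counts plus 0.5 after TMM scaling, which sets the typical gene to 0, for the 36 genes whose mean count reached 10. On this scale 24 were higher in pup 1 and 12 higher in pup 2, while 49.7% of protein-coding genes were higher in pup 1. The median was -0.64, against 0.00 for protein-coding genes. Over 2-fold apart were 13 (36.1%) higher in pup 1, against 9.14% of protein-coding genes, and 5 (13.9%) higher in pup 2, against 4.71%. Exact binomial 95% intervals, which cover counting error only, lay wholly below 0 for 18 (50.0%), against 36.4% of protein-coding genes, and wholly above 0 for 10 (27.8%), against 37.1%. Scaling by the spike-ins, 5717 counts in pup 1 and 1022 in pup 2, adds 2.57 to every ratio, the median of protein-coding genes included, and puts all 36 higher in pup 2, so every direction below is relative to the other genes. Log2 ratios of TPM centre on 0.40 for protein-coding genes. By them Cacna1a, Cacng8, Scn7a and Scn8a change sign, to 0.23, 0.04, 0.17 and 0.14. All 4 lie below that centre and so stay lower in pup 2 relative to the typical gene.

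**Figure D4:**
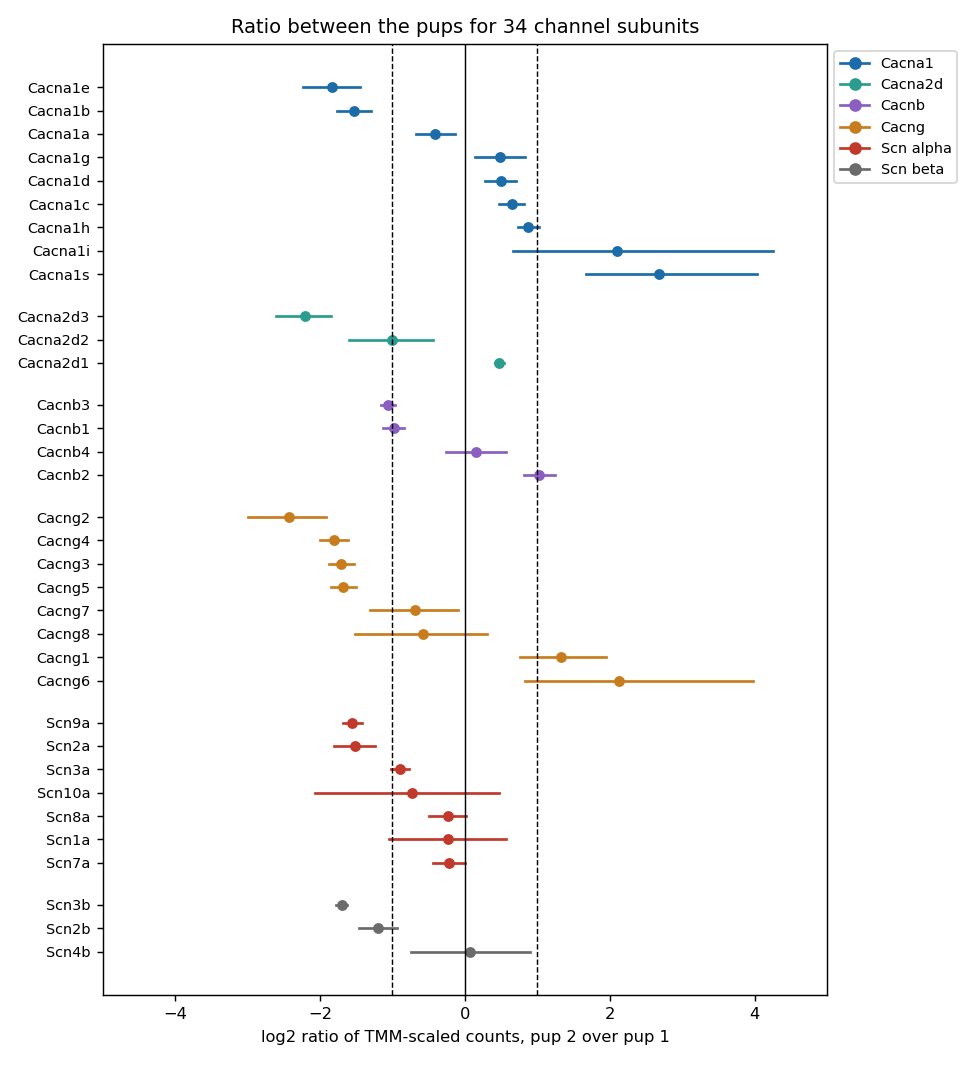
log2 ratio of TMM-scaled counts, pup 2 over pup 1, for 34 of the 36 genes whose mean count reached 10, by class; bars are exact binomial 95% intervals (counting error only), dashed lines mark 2-fold. Scn3b, Scn9a, Cacng3, Cacng4 and Cacng5 lie left of the lower line and L-type and T-type pores right of 0; on the spike-in scale all 34 would lie right of 0.

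In scaled counts, the calcium channel pores divided by type. All 3 counted L-type pores and all 3 T-type pores had higher scaled counts in pup 2, with median log2 ratios of 0.65 and 0.88. Of these, Cacna1s had 8 and 57 counts and Cacna1i 4 and 20. Cacna1h had a log2 ratio of 0.88 (95% interval 0.73 to 1.02, from 586 and 1142 counts) and Cacna1c one of 0.65 (0.48 to 0.82). The P/Q-, N- and R-type pores all had lower scaled counts in pup 2, with Cacna1a at -0.41, Cacna1b at -1.52 (-1.76 to -1.30) and Cacna1e at -1.83 (-2.24 to -1.45). The whole Cacna1 class thus had a median of 0.49 with members on both sides. The spike-in scale alone put the P/Q-, N- and R-type pores all higher in pup 2. By TPM, where protein-coding genes centre on 0.40, Cacna1a lay at 0.23, Cacna1g at 0.09 and Cacna1c at 0.40. The other counted L-type and T-type pores lay above that centre, and Cacna1b and Cacna1e below it.

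The accessory classes lay mostly lower in pup 2 on the same scale. The median log2 ratio was -1.18 for Cacng, -0.90 for Scn beta and -0.42 for Cacnb. By TPM the Cacnb median was 0.48, near the centre of 0.40 for protein-coding genes. In scaled counts the 3 counted Cacna2d genes ran from -2.21 to 0.48. Scn3b had a log2 ratio of -1.70 (-1.77 to -1.63, from 6301 and 2056 counts), the narrowest interval of those over 2-fold apart. Cacna2d3 was at -2.21 (-2.61 to -1.85) and Cacng2 at -2.42 (-3.00 to -1.92), the lowest of the 36. Cacna2d1 was 0.48 higher in pup 2 (0.41 to 0.54, from 3024 and 4458 counts), and Cacnb2 was 1.03 higher (0.81 to 1.24). The Cacnb3 ratio of -1.06 (-1.16 to -0.97) has an interval that spans 2-fold, and the ratio is -0.68 by TPM.

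All 8 counted Scn alpha pores had lower scaled counts in pup 2, with a median of -0.79. Scn9a had a log2 ratio of -1.55 (-1.69 to -1.42, from 1721 and 622 counts), Scn2a one of -1.52 (-1.80 to -1.25) and Scn3a one of -0.90 (-1.02 to -0.78). The intervals of Scn7a, Scn8a, Scn1a and Scn10a included 0. By TPM Scn7a and Scn8a lay above 0, at 0.17 and 0.14, but below the centre of 0.40 for protein-coding genes. Higher in pup 2 by over 2-fold were Cacna1s at 2.67 (1.67 to 4.03), Cacna1i at 2.10 (0.66 to 4.25, from 4 and 20 counts), Cacng6 at 2.13 (0.83 to 3.98), Cacng1 at 1.33 (0.77 to 1.94) and Cacnb2. With the minimum mean count raised to 100, Cacnb2 alone remained of these 5. Its long coding RNA was nearer between the pups, with 65.6 and 91.5 counts against 260 and 562 for the gene.

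Neighbouring genes did not always share a direction. On chromosome 11, Cacng1, Cacng4 and Cacng5 lie in a row on the minus strand with gaps of 15835 and 80048 bases (chr11:107703218-107915055 on mm10). Cacng4 and Cacng5 had log2 ratios of -1.81 and -1.68 and Cacng1 one of 1.33. On chromosome 7, Cacng7, Cacng8 and Cacng6 lie with gaps of 22462 and 8547 bases, with ratios of -0.69, -0.58 and 2.13. The sodium channel genes of chromosome 2, Scn3a, Scn2a, Scn1a, Scn9a and Scn7a, spanned mean levels from 0.19 TPM for Scn1a to 5.75 for Scn3a, though Scn1a lies 39240 bases from Scn9a at 4.45 TPM.

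Cell type markers also differed between the pups, in both directions. Of 60 markers whose mean count reached 10, 21 (35.0%) were over 2-fold higher in pup 1, against 9.14% of protein-coding genes. Another 18 (30.0%) were so in pup 2, against 4.71%. Of the markers of the labelled tissue, 7 of 7 steroidogenic and 8 of 8 chromaffin genes had TPM 1 or more in both pups, against 60.5% of all protein-coding genes. All 8 neuron markers, Stmn2 and Prph among them, were over 2-fold higher in pup 1 (summed 1276 TPM against 405, median log2 ratio -2.02), as were the Schwann cell markers in 6 of 6 (176 and 92.4 TPM), 2 of them over 2-fold. All 7 steroidogenic markers were higher in pup 2 (6435 and 17156 TPM, median 1.18), and 3 of 4 glomerulosa markers (98.1 and 192 TPM). The 8 chromaffin markers split, 5 higher in pup 2 and 3 in pup 1, with Chga at 1.06. In bulk tissue, fewer cells of a type and less RNA per cell cannot be told apart, and the part of any cell type in the channel ratios was not tested.

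Skeletal muscle markers were higher in pup 2 in 8 of 8, summing to 73.3 TPM in pup 1 and 301 in pup 2, with Myh1 at 0 counts in pup 1. Of the channel subunits of skeletal muscle, Cacna1s and Cacng1 had higher scaled counts in pup 2, Cacnb1 lower ones (log2 ratio -0.98), and Scn4a had 3 and 5 counts. Cardiac markers were higher in pup 1 in 4 of 4 (16.2 and 10.3 TPM), and stomach markers in 4 of 4 (123 and 4.95 TPM, Gkn1 at 0 counts in pup 2). Smooth muscle markers summed to 89.6 and 79.1 TPM, endothelial markers to 84.7 and 168, and kidney markers to 0.78 and 3.87. Markers of pituitary, islet or brain summed to 2.11 and 2.81 TPM, with Neurod6 at 0 in both. The part of these tissues in the results was not tested.

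Genes listed as partners of the channels were counted in the same way. All 54 distinct genes listed were matched, and 39 reached TPM 1 in both pups, against 60.5% of all protein-coding genes. Of 50 whose mean count reached 10, 36 were higher in pup 1 and 14 in pup 2 relative to the other genes. Of protein-coding genes, 49.7% were higher in pup 1. Over 2-fold apart were 11 (22.0%) higher in pup 1, against 9.14% of protein-coding genes, and 2 (4.0%) higher in pup 2, against 4.71%. Their median log2 ratio was -0.41. Of 5 genes on the list of sodium channel modulators, the 4 detected had over 2-fold higher scaled counts in pup 1. Log2 ratios were -1.93 for Pirt, and -1.55, -1.26 and -1.20 for the adhesion proteins Nrcam, Nfasc and Cntn1. The list is a grouping chosen here, and whether Pirt acts on sodium channels was not tested. By TPM, Pirt had 17.38 and 5.96, Nrcam 5.22 and 2.33, Nfasc 6.44 and 3.24, and Cntn1 3.17 and 1.81. The last 2 were thus under 2-fold apart by TPM, a scale on which log2 ratios of protein-coding genes centre on 0.40. The fifth, Tmem233, had 0 counts in both, which allows up to 3 counts in each. Ank2 and Ank3, ankyrins that anchor channels, stood at 23.14 and 17.59 TPM and at 11.73 and 8.84, and the ubiquitin ligase Nedd4 at 168 and 221.

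Of the RGK proteins, small GTPases that bind beta subunits and inhibit calcium channels, all 4 were detected. Gem led at 22.64 and 18.18 TPM, Rem1 had 5.86 and 7.76, Rrad 1.85 and 4.20, and Rem2 1.68 and 1.06. Gem was thus at a level like that of Cacnb3. The adaptor Stac had 9.28 and 6.62 TPM, and Stac3, the adaptor of the skeletal muscle channel, 0.65 and 1.62, higher in pup 2 as Cacna1s was. Fgf13 and Fgf14, which bind the sodium channel tail, had 7.70 and 5.43 TPM and 3.03 and 1.25. Of 7 presynaptic scaffold genes that tether calcium channels, 5 reached TPM 1 in both pups, led by Cask (9.61 and 10.52 TPM), Erc1 (5.88 and 6.13) and Rims2 (3.86 and 5.79).

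The sodium leak channel showed opposite directions among its genes. The pore Nalcn had 2.83 TPM in pup 1 and 1.17 in pup 2 (log2 ratio -1.66), and its auxiliary subunit gene Fam155a 3.56 and 9.46 (1.02). Of the calcium release channels, Itpr2 (5.42 and 14.71 TPM) and Itpr1 (2.98 and 6.39) were higher in pup 2, and Ryr2 was at 1.11 and 0.59. Calm2, a calmodulin gene whose product is a calcium sensor of both channel families, stood at 1272 and 1149 TPM.

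Exons of 11 of the 40 genes overlap an exon of another gene in the annotation, on the opposite strand in 10. Among them are Cacna1d with Chdh (589 bases), Cacna1h with Tpsg1 (158), Cacna1s with Gm37759 (1309), Cacnb2 with Gm10849 (618) and Scn9a with Gm13629 (180). No label or file header states how strand was handled, so reads of these stretches may belong to either gene. The values of these genes carry that limit.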

How the data were processed

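Each library has 1 table of genes and 1 of transcripts. Per the file headers, the authors gave expected counts (estimated, not always whole), TPM, and FPKM scaled by effective length and library reads. The deposited posterior mean count is a signal estimate on the scale of reads, per the file headers. The transcript tables add a deposited isoform percent. The notes deposited with the tables name mm10 and GENCODE M4. Which aligner and quantifier were run is not stated in the labels or headers.

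Symbols, gene types, coordinates and sequences were taken from GENCODE M21, also on mm10, by unversioned Ensembl identifier, so transcript models may differ from M4. Of 223 transcripts of the 40 genes, 3 had no match. Levels are deposited TPM. Ratios used counts rounded to whole numbers plus 0.5, TMM scaling in edgeR 4.0.16 (R 4.3.3) and a mean count of at least 10. Binomial intervals came from scipy 1.17.1 and reflect counting error alone: without molecular identifiers, reads need not be separate molecules. The ratio was checked on simulated counts with planted changes, which tests the calculation and not the spread between pups or the choice of scaling. Alternatives included DESeq2 1.42.0 size factors. Both libraries form 1 group by the labels, so no test was run.

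The gene set, partner lists and marker lists were chosen with earlier results of these data known. Every member could be named, with values for each at TPM 1 or more in either pup and for others that mark a tissue. Partners and markers were named as the 3 highest of a list or any of a list of up to 5. Tpsg1, Chdh and the other overlapping genes, and the partners and markers outside that rule (Prph, Myh1, Ryr2), were named after their values were seen. Some genes the rules take are not reported here one by one and stand only in sums and counts.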

Additional observations from a re-analysis of the deposited data

How the results depend on the processing

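Class sums moved by more than the spread between the pups as follows. Over nuclear protein-coding genes alone, mean TPM became 22.7 for Cacna1, 27.1 for Cacna2d, 47.9 for Cacnb and 22.8 for Scn alpha. Every class rose on this scale, but Scn beta, at 53.3, and Cacng, at 34.1, stayed within their wider spread. With posterior mean TPM Cacna1 became 19.1. With long coding transcripts alone (chosen after seeing the data) it became 8.09 for Cacna1, 28.0 for Cacnb and 9.60 for Scn alpha. The count of genes at TPM 1 in both pups ran from 13 to 24 over the thresholds and estimators tried. The share of all protein-coding genes was computed only for a deposited TPM of 1. With posterior mean isoform percent, 6 of the 13 shared leading transcripts changed share by more than the spread between the pups. Among them was that of Cacna1h, from 61.0% to 37.7%. Scaling by spike-in counts gave median log2 ratios of 1.93 for all members, 3.06 for Cacna1, 1.57 for Cacna2d, 2.15 for Cacnb, 1.39 for Cacng, 1.77 for Scn alpha and 1.67 for Scn beta. It put 0 genes over 2-fold higher in pup 1 and 29 in pup 2. The median protein-coding gene lies at 2.57 on that scale, itself over 2-fold. The share of all protein-coding genes called there was not counted, so these counts are not particular to the channels. On that scale log2 ratios that had been over 2-fold lower in pup 2 became 1.51 for Cacnb3, 0.74 for Cacna1e, 1.04 for Cacna1b, 1.57 for Cacna2d2, 0.15 for Cacng2, 0.76 for Cacng4, 0.35 for Cacna2d3, 0.89 for Cacng5, 0.87 for Scn3b, 0.86 for Cacng3, 1.37 for Scn2b, 1.02 for Scn9a and 1.05 for Scn2a. The shift follows from the spike-in counts, and why these differ between the pups was not tested. Ratios of TPM, which centre on 0.40 for protein-coding genes, gave medians of -0.37 for Cacna2d, 0.48 for Cacnb and -0.51 for Scn beta. A mean count of at least 100 gave -1.76 for Cacng and -1.20 for Scn beta and left 1 gene over 2-fold higher in pup 2. No filter gave -0.26 for Cacna2d. DESeq2 size factors, total counts, pseudocounts of 1 and 0.1 and posterior mean counts changed the direction of none of the 36 ratios. With 1 pup left out, the class sum is that of the other, which moves Scn beta (23.26 to 48.55 TPM) and Cacng (15.09 to 30.97) by over 1.5 times when pup 1 is left out. No paired analysis was possible because both libraries belong to 1 group. Genes under 10 counts gave no ratio, and depth limits what can be said of Cacna1f, Cacna2d4, Scn4a and Scn11a.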
